A study of Arabidopsis thaliana with 2 samples.

Results

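The genes described here are COR15A, COR15B, COR47 and LTI30, 4 cold-regulated genes of Arabidopsis thaliana that encode protective, strongly hydrophilic proteins. They were chosen by name, with their ratios in these data already known, from 13355 genes that could be named on the array. Each is read by 1 of the 22810 probe sets, and all 4 were bright enough to count as measured. The data are 1 ATH1 array of the auxin-resistant mutant axr4-2 and 1 array of the wild type, both in the Col0 ecotype. ATH1 is a 1-colour array on which a set of short probes reads each transcript. RNA came from whole plants, the labels give both samples 24 h of light per day at 22 °C and growth stage 1.02, and no cold treatment is named for either. How many plants were pooled is not given in the sources used here, and neither the lesion of axr4-2 nor the AXR4 transcript, which has no named probe set, was examined. In RNA from whole plants, a change in the amount of a transcript per cell and a change in the share of cells that hold it cannot be told apart.

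In the cold, the CBF transcription factors, also called DREB1, bind CRT/DRE elements in the promoters of COR genes and switch them on; abscisic acid and drought act on many of the same promoters. COR15A and COR15B encode small late embryogenesis abundant (LEA) proteins of the chloroplast stroma, which protect membranes when a freezing cell loses water. COR47 and LTI30 encode dehydrins, LEA proteins with lysine-rich K segments that bind membranes: COR47 is acidic, and LTI30, also known as XERO2, is basic. AXR4 acts in the endoplasmic reticulum, where it helps AUX1, a carrier that takes auxin into cells, on its way to the cell surface.

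All 4 genes had higher intensities on the axr4-2 array, by unequal amounts. COR15A stood at 2.70-fold, which is 1.43 as the log2 of the axr4-2 over the wild-type intensity (log2 ratio). COR47 stood at 1.38-fold, LTI30 at 1.18-fold and COR15B at 1.18-fold. With 1 array per group there is no replicate and no test, so none of these differences could be set against a spread between samples. The number of arrays limits how precise each value is. Only COR15A was 2-fold or more apart, which makes 1 of the 4 genes, and 0.94% of the 6381 measured genes were 2-fold or more higher. None of the 4 was 2-fold or more lower, where 1.47% of measured genes were. Of all measured genes, 45.7% had a log2 ratio above 0. Because the genes were picked with these ratios known, nothing is read from either comparison. Their median log2 ratio was 0.35, and that of all measured genes was -0.04.

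COR15A (AT2G42540, probe set 263497_at) read 68.8 in axr4-2 but 25.5 in wild type. It moved from below the wild-type array's median intensity of 42.7 to above the median of 39.5 in axr4-2. In rank, counted from the brightest of all probe sets, it went from 14354 in wild type to 8277 in axr4-2, a gain of 6077 places. On the wild-type array 37.0% of probe sets were dimmer, and on the axr4-2 array 63.7%. It counted as measured through its axr4-2 reading alone.

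The wild-type reading of COR15A was close to background. Unspiked control probe sets, which read bacterial RNA that plants lack, showed how bright a probe set can be without its target. Among these 27 probe sets the brightest had an intensity of 27.1 in wild type and 18.1 in axr4-2, and the next brightest read 10.3 and 7.40. COR15A in wild type thus lay below the brightest of them and above the other 26, whereas in axr4-2 it lay above all 27. The size of its ratio is therefore uncertain. With both arrays raised to their brightest control, a choice made after the values were seen, its log2 ratio was 1.34. Adding a pseudocount of 16 to every intensity brought it down to 1.03, close to the 2-fold limit.

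COR15B (AT2G42530, probe set 263495_at) read 53.3 in axr4-2 and 45.3 in wild type. Its log2 ratio was 0.23. Both readings were above the array medians and above all 27 control probe sets. Its rank went from 11023 in wild type to 9681 in axr4-2. A ratio as high or higher was found in 22.3% of measured genes. That share leaves out genes that differed by as much in the other direction. The 25th percentile of the log2 ratios of measured genes was -0.29.

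COR47 (AT1G20440, probe set 259570_at) was among the brightest probe sets on both arrays, with 898.6 in axr4-2 and 650.8 in wild type. Its rank was 674 in axr4-2 and 959 in wild type, and 97.0% and 95.8% of probe sets were dimmer. The log2 ratio was 0.47, a value reached by 8.60% of measured genes.

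LTI30 (AT3G50970, probe set 252102_at) read 656.2 in axr4-2 and 557.1 in wild type. Its log2 ratio was 0.24. Its rank was 985 in axr4-2 and 1146 in wild type, and 22.2% of measured genes had a ratio as high or higher. Both dehydrin genes were therefore bright on both arrays at the labelled 22 °C. Probe sets bind their targets with different strength, so these ranks place a probe set on its array and do not order the genes by transcript amount.

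**Figure D1:**
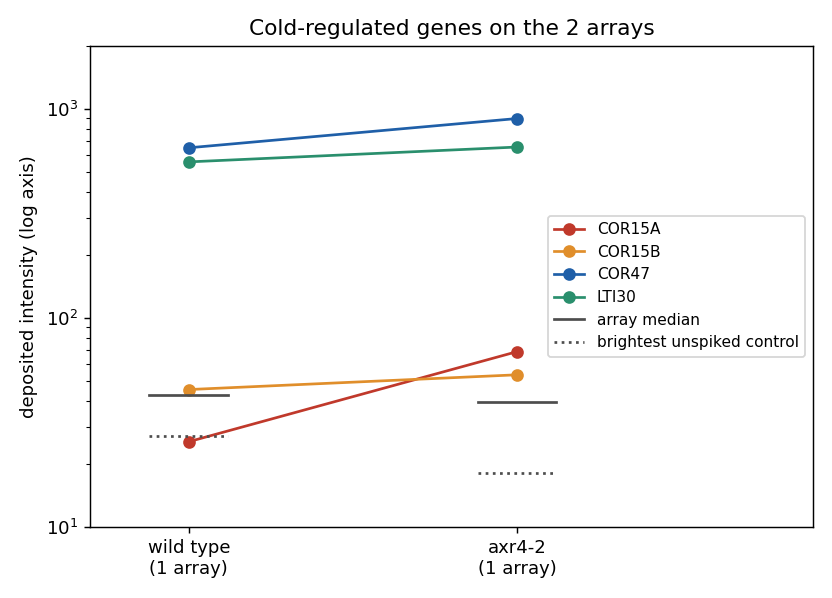
Deposited intensity (log axis) of COR15A, COR15B, COR47 and LTI30 in wild type and in axr4-2, 1 point per array, with the array median as a solid bar and the brightest unspiked control probe set as a dotted bar. All 4 lines go up towards axr4-2, COR15A most steeply, from 25.5 to 68.8, and its wild-type point lies below the control's 27.1.

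COR15B and COR15A are neighbours on chromosome 2 in the RefSeq gene order of assembly TAIR10.1, a tandem pair of closely related genes. The log2 ratio of COR15A exceeded that of COR15B by 1.20 as deposited, by 1.11 with both arrays raised to their brightest control and by 0.85 with the pseudocount of 16. The size of the gap is as uncertain as the wild-type reading of COR15A on which it rests. This gap can be set against the scatter between probe sets. Where 1 gene was measured by more than 1 probe set, as in 30 genes, the disagreement of the brightest 2 corresponds to an SD of 0.41 per probe set and of 0.58 for a difference between 2 of them. Of these 30 genes, 4 had probe sets that differed from each other by 1 or more, and 3 by the COR15 gap of 1.20 or more.

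Among 1645 pairs of neighbouring genes that were both measured, the median absolute difference in log2 ratio was 0.36. Of these pairs, 6.87% differed by 1 or more and 4.32% by the COR15 gap or more. The COR15 pair was chosen with its gap known, so nothing is read from these shares. Whether the probes of one COR15 gene also bind transcripts of the other was not tested.

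The other measured neighbours had log2 ratios below 0 as deposited. AT2G42520, the gene on the other side of COR15B, read 53.8 in axr4-2 and 66.3 in wild type (-0.30). AT1G20430, beside COR47, read 152.7 and 178.7 (-0.23), and AT1G20410, the next gene on that side, read 43.1 and 48.0 (-0.16, which median centring turned to 0.02). All of these ratios are smaller in size than the SD of 0.41 per probe set. So are the ratios of COR15B (0.23) and LTI30 (0.24), and that of COR47 (0.47) is little above it. That SD pools genes without matching them to these for brightness. It comes from probe sets read on the same arrays, so it misses the variation between plants. COR47 is also adjacent to the dehydrin gene ERD10, and LTI30 to the dehydrin gene XERO1, but neither partner has a named probe set and both are not analysed here.

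Spike-in controls, bacterial and phage transcripts added to both samples, gave a reading of array noise at similar brightness. The 6 bioB probe sets read between 38.9 and 73.4 in axr4-2 and between 28.0 and 66.7 in wild type. Both COR15B readings and the axr4-2 reading of COR15A fall in these ranges, but the wild-type COR15A reading of 25.5 was dimmer than every bioB probe set, so no spike-in covers it. Their log2 ratios ran from -0.03 to 0.47, with a mean of 0.19. COR15B, at 0.23, lay inside that range. The 3 bioD probe sets nearest in brightness to the dehydrin genes read between 513.7 and 664.7 on both arrays and had log2 ratios from -0.06 to 0.02. LTI30, at 0.24, and COR47, at 0.47, lay above these 3. The COR47 reading of 898.6 in axr4-2 was itself brighter than these bioD probe sets. Brighter still were the 4 cre probe sets, between 1120.2 and 2858.1 over both arrays. Their log2 ratios ran from -0.32 to 0.10, so 1 bright spike-in differed by more in size than LTI30. The dimmer bioD probe set, at 114.0 in axr4-2 and 94.4 in wild type, had a log2 ratio of 0.27. Spike-ins share neither the plants nor the RNA extraction, so they miss the variation between plants.

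Most ratios of 2-fold or more in the series belonged to dim genes, and COR15A is one of these. Among the dimmer 50% of measured genes by mean log2 intensity, which hold COR15A and COR15B, 1.60% were 2-fold or more higher and 2.29% were 2-fold or more lower. Among the brighter 50%, which hold COR47 and LTI30, 0.282% were 2-fold or more higher.

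**Figure D2:**
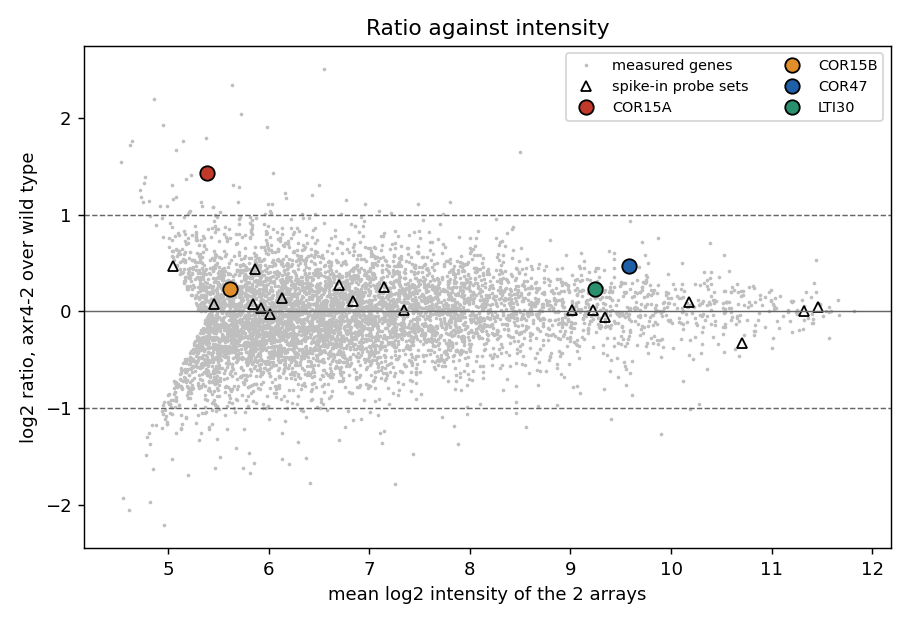
Log2 ratio (axr4-2 over wild type) plotted against the mean log2 intensity of the 2 arrays for 6381 measured genes (grey dots), 18 spike-in probe sets (triangles) and the 4 cold-regulated genes (coloured circles); dashed lines mark 2-fold. COR15A, at 1.43, lies above the dashed line at the dim end, and COR47 and LTI30 lie at the bright end, where the dots are closest to 0.

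None of the measured dehydrin genes, COR47 and LTI30 included, was 2-fold or more apart. Of 10 listed dehydrin genes, 6 have a named probe set and 3 were measured. Of all measured genes, 0.94% were 2-fold or more higher and 1.47% 2-fold or more lower. None of 3 is thus near the background, and nothing is read from it. The third measured dehydrin gene, AT1G54410, which encodes a small histidine-rich dehydrin, read 2102 in axr4-2 and 2073 in wild type (0.02). This sign turned under quantile normalization (-0.03) and with the intensity trend removed (-0.04). The remaining named dehydrin genes were dim. AT4G38410 read 26.3 and 36.1 (-0.46), below the median of both arrays and above the brightest unspiked control. The dehydrin gene LEA (AT2G21490) read 13.3 and 2.40, and AT4G39130 read 7.40 and 14.6, always with axr4-2 first. All 4 of these LEA and AT4G39130 readings lay below the brightest unspiked control of their array, so no ratio is given for them.

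LEA genes outside the dehydrins were mostly dim. Of 43 listed genes, which include COR15A and COR15B, 31 have a named probe set, and 22 of these lay at or below the 25th percentile of intensity on both arrays. Besides the COR15 pair 4 were measured, all less than 2-fold apart. This too is near the background, with 0.94% of all measured genes 2-fold or more higher and 1.47% lower. AT2G44060 read 832.7 in axr4-2 and 571.9 in wild type (0.54), AT2G46140 read 90.4 and 70.7 (0.35), and the drought-induced gene DI21 read 222.6 and 176.7 (0.33). AT2G23120 went the other way, with 776.3 and 972.4 (-0.32). The ratio of AT2G44060 exceeded that of COR47.

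Few regulators of the pathway could be read. Of 16 listed regulators of the CBF pathway, the CBF genes included, the 1 named gene was STZ, also called ZAT10, a zinc finger repressor induced by cold, salt and drought. It read 159.1 in axr4-2 and 134.5 in wild type (0.24). None of 16 listed genes of abscisic acid signalling and response has a named probe set. Of 14 further cold-regulated genes 3 are named, and all 3 lay at the floor on both arrays: AT4G33980 read 3.90 and 9.50, COR27 read 1.00 and 2.00, and AT2G42560, which lies next but one to COR15A, read 0.90 and 1.20. COR15A was thus brighter in axr4-2 while these 3 cold-regulated genes could not be measured in either sample. The clock gene GI, the 1 named gene of 10 listed clock genes, read 52.1 and 50.3 (0.05).

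Over all these pathway lists without the 4 cold-regulated genes, 37 of 104 genes have a named probe set and 7 were measured. None of the 7 was 2-fold or more apart in either direction, 6 had a log2 ratio above 0, AT1G54410 and GI with the small values above, and their median was 0.24, against -0.04 for all measured genes. For genes that reach the 75th percentile of intensity, as most of the 7 do, the median was 0.01. Of all measured genes, 45.7% lay above 0, 0.94% were 2-fold or more higher and 1.47% 2-fold or more lower. None of 7 is thus near the background. The lists were chosen with earlier results of these data known, so nothing is read from the counts or the median. Quantile normalization and removal of the intensity trend turned AT1G54410 below 0 and left 5 above.

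**Figure D3:**
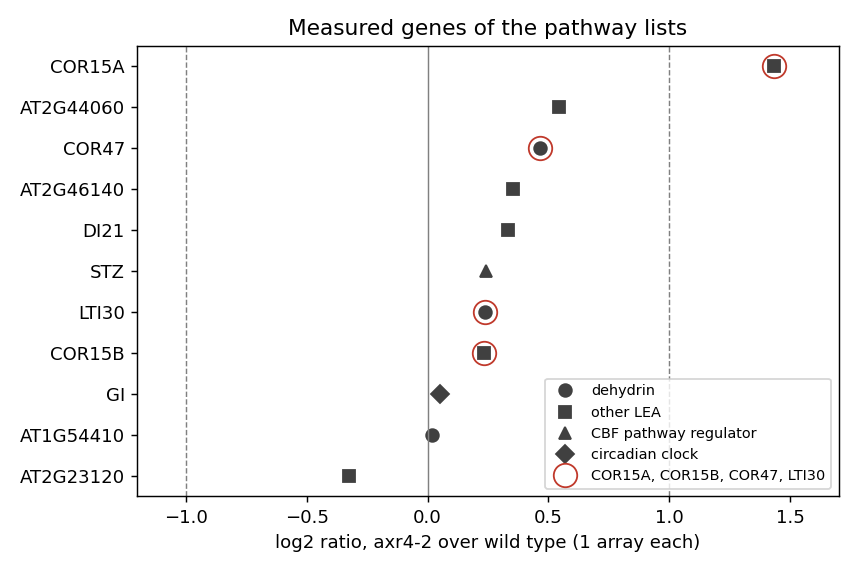
Log2 ratio (axr4-2 over wild type, 1 array each) for the 11 measured genes of the dehydrin, LEA, CBF pathway and clock lists, sorted by ratio, with symbols by list and the 4 cold-regulated genes ringed. COR15A, at 1.43, is the only one of the 11 past the dashed 2-fold lines, and AT2G23120, at -0.32, is the lowest.

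Tissue markers and RNA quality were compared because dehydrin transcripts also accumulate in seeds and under stress. The shoot markers RCA, PRK and LHCB4.1 read between 2431.9 and 3366.0 on both arrays, with log2 ratios from 0.08 to 0.12. Among root markers, the beta-glucosidase gene PYK10 read 2981.9 in axr4-2 and 2966.9 in wild type. The root peroxidase genes AT5G17820 (304.5 and 229.4) and AT4G11290 (42.1 and 32.5) had log2 ratios of 0.41 and 0.37, close to that of COR47. AT4G11290 was far dimmer than COR47. Its wild-type reading lay below the array median of 42.7 and not far above the brightest unspiked control, at 27.1. Of 9 listed dry seed markers 2 are named: the storage protein gene PAP85 read 19.4 in axr4-2 and 56.0 in wild type (-1.53), the opposite direction to the COR genes, and AT2G28490 read 7.90 and 3.90, at the floor on both arrays. The axr4-2 reading of PAP85 was barely above the brightest unspiked control. Named seed markers summed to 27.3 in axr4-2 and 59.9 in wild type.

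RNA degradation raises the 3′ signal of a transcript relative to its 5′ signal. For the actin control this quotient was 2.12 in axr4-2 and 3.23 in wild type. The ubiquitin control gave 1.81 in axr4-2 against 2.26, and the GAPDH control 1.05 against 1.03. The part of tissue make-up and RNA quality in the COR and dehydrin ratios was not tested.

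The genes with the most similar pair of intensities were named by the distance between log2 intensities over the 2 arrays. For COR15A these were the pectate lyase gene AT1G67750 (69.6 in axr4-2 and 25.7 in wild type) and AT1G65690 (59.5 and 27.1). For COR15B they were AT3G07540 and AT5G12880, with log2 ratios of 0.24 and 0.26. For COR47 they were AT3G12260 (918.9 and 656.5) and AT1G22410 (868.1 and 708.6). For LTI30 they were the phosphoglycerate kinase gene AT1G56190 (657.4 and 555.8) and the RING finger gene BRH1 (642.2 and 562.0). None of the 8 belongs to the pathway lists, and with 2 arrays this likeness is only that of 2 intensities.

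Other processing choices changed the sizes and left all 4 genes higher in axr4-2. COR15A ranged from 1.03 to 1.60 over 9 alternative settings, COR47 from 0.41 to 0.64, LTI30 from 0.18 to 0.41 and COR15B from 0.18 to 0.41. COR15A was 2-fold or more higher and the other three were not in each of the 9.

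**Figure D4:**
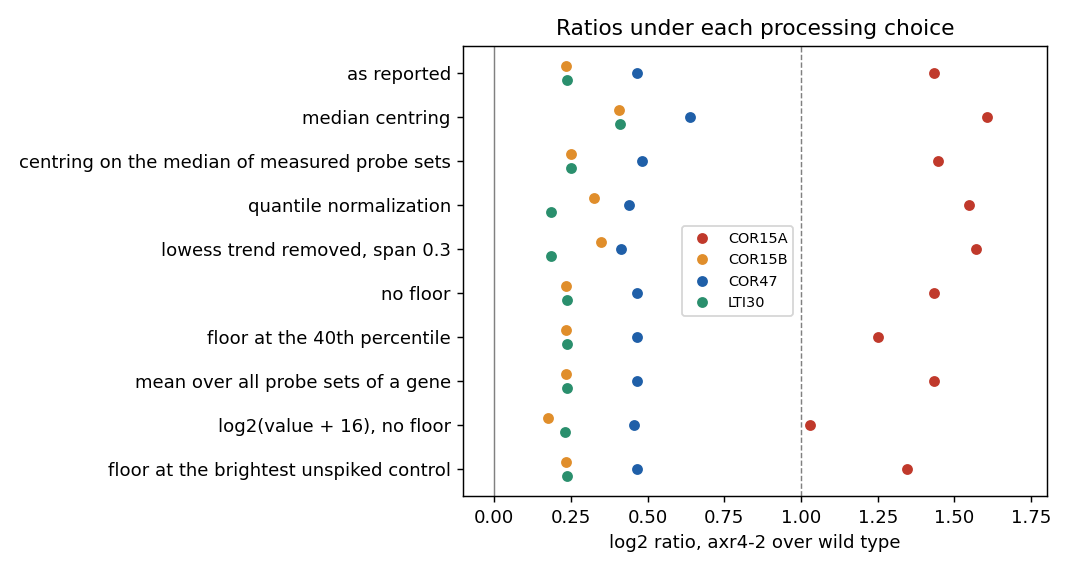
Log2 ratios (axr4-2 over wild type) for the 4 cold-regulated genes as reported and under 9 alternative settings of scaling, floor, probe set choice and pseudocount; points of COR15B and LTI30 are shifted up and down slightly for legibility. COR15A stays to the right of the dashed 2-fold line, closest at 1.03 with the pseudocount of 16, and the other genes stay between 0.18 and 0.64.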

How the data were processed

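The deposited table holds linear intensities of 22810 probe sets on each of 2 arrays. Without the lowest and highest 2% of values, the mean was 100.0 on both arrays. The software behind them is not given in the sources used here. Gene names came from the platform annotation: 13513 probe sets have 1 gene, of which 13436 matched RefSeq (TAIR10.1, used for names and gene order), 503 have several genes and 8794 are unnamed here. Values below the 25th percentile of an array were raised to it (12.0 in axr4-2, 13.5 in wild type) before log2 ratios were taken; no member lay that low. The brightest probe set stood for a gene, and a gene was measured if the higher of its 2 values was at or above the 50th percentile on the array concerned. The limit for 2-fold was a log2 ratio of 1.

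Named genes are the 4 members, their tandem neighbours, all named dehydrins, the 2 highest and 2 lowest measured genes of each list, and the 2 nearest genes to each member by intensity. The other neighbours and the remaining named genes of lists with few were added after their values were seen. The members and lists were chosen with earlier results of these data known. With 1 array per group no test was run. The calculation of ratios was tested on simulated data. Alternatives were 3 scalings, the floor, the pseudocount, the probe set choice and the filter. The work used matplotlib 3.10.9, statsmodels 0.14.6, pandas 2.3.3, numpy 2.4.6 and Python 3.11.15.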

Additional observations from a re-analysis of the deposited data

How the results depend on the processing

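All 9 alternative settings of scaling, floor, pseudocount and probe set choice moved the ratio of each member by less than 0.41, the SD per probe set, and none turned a sign. Several could hardly change them: no member lies at the 25th percentile floor or has a further probe set. The gap between COR15A and COR15B ran from 0.85, with the pseudocount of 16, to 1.22, and the median of the 4 genes from 0.34 to 0.52. With the filter on dim genes at the 75th percentile, COR15A and COR15B dropped out and the count of members 2-fold or more higher went from 1 to 0. Median centring over all probe sets shifted every ratio by the ratio of the floors, so that the median of measured genes moved from -0.04 to 0.13. Relative to that median, the members kept their ratios. The 60 measured genes 2-fold or more higher became 117 with this centring, 61 with centring on measured probe sets, 16 with the filter at the 75th percentile, 21 with the pseudocount and 99 with no filter. Centring on measured probe sets and the control-based floor were chosen after seeing the data. No paired analysis was possible because each group has 1 array, so leaving out an array was not possible either. Signal over background limits COR15A through its wild-type value of 25.5, below the brightest unspiked control.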
